A study of Mus musculus with 6 samples.

Results

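The interferon-stimulated genes of hippocampal astrocytes were examined after ablation of microglia. They were 44 genes, chosen by name from a fixed list and matched to the gene column of the deposited tables, out of 24421 genes listed there. The list holds genes that interferons switch on, together with the receptors and transcription factors that carry the signal, and leaves out the MHC class I genes. Of the 44 genes, 43 passed the filter on low values and were tested, among 15137 genes tested in all.

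All mice were C57BL/6 and homozygous Siglechdtr/dtr, in which the diphtheria toxin receptor is placed in the microglial gene Siglech, so that both groups carried the allele and, per the study, reduced Siglec-H. Mice received PBS or diphtheria toxin (DT, 50 μg/kg, into the abdomen), and hippocampi were taken 2 days later. Cells bearing CD11b were first removed on magnetic beads, and astrocytes were then held on beads against ACSA-2, an astrocyte surface antigen. RNA of 3 PBS pools and 3 DT pools, each from 2 mice, was sequenced in independent experiments, so the replicate error below is that between pools and not between single mice, and no mice without the allele were analysed here.

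Cells read type I interferons through a receptor made of IFNAR1 and IFNAR2, whose kinases activate STAT proteins. STAT2 joins IRF9 in a complex that binds the interferon-stimulated response element (ISRE). Interferon gamma acts through IFNGR1 and IFNGR2, and its signal ends at the gamma-activated site (GAS). The genes switched on block viral entry, translation and replication, attack the membranes around intracellular pathogens, or feed back on the pathway, and astrocytes use them in viral encephalitis and in inflammation of the central nervous system.

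Promoter sequence was compared first. The list was chosen by gene name and not by sequence. Interferon signals act through the ISRE and GAS, so frequent matches in such a list were likely beforehand. RefSeq windows of 300 bases, from 250 bases before to 50 bases after the start of the RefSeq gene, were found for 34 of the 44 genes (build GRCm38.p6). The ISRE core, read as GAAA, any 2 bases and GAAA again on either strand, was present in 19 of these 34 genes (55.9%), and in 3.44% of all 32851 windows or 3.99% of the 27025 genes with a window. The GAS motif, TTCNNNGAA, read alike on both strands, was present in 14 of 34 genes (41.2%), against 8.30% of windows or 9.55% of genes. Both motifs were found in 8 genes and neither in 9. The motifs overlapped by 3 bases in Bst2 and in Ifitm3. The stretches below show the ISRE core in the immunity-related GTPases, in a pair of guanylate-binding proteins, in the IFIT genes that hold it (Ifit1, Ifit3 and Ifit3b) and in Isg15, each as 30 bases on the strand of the gene, 5′ to 3′, with the letters of the motif in capitals. Where the match is on the opposite strand, the capitals are its reverse complement.
Irgm1: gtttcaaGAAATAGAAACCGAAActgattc
Irgm2: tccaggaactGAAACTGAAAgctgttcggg
Igtp: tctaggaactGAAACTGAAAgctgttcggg
Gbp7: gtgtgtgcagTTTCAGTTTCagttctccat
Gbp3: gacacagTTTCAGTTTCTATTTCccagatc
Ifit3: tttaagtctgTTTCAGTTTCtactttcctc
Ifit3b: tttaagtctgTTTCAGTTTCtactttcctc
Ifit1: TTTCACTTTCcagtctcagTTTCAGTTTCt
Isg15: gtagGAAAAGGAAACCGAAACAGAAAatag

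The Irgm1 stretch lies at chr11:48871428-48871457 on the minus strand, from 37 to 8 bases before the start that RefSeq gives, and holds 2 overlapping cores. Those of Irgm2 and Igtp lie at chr11:58214903-58214932 and chr11:58199512-58199541 on the plus strand. The GENCODE annotation used for all other gene positions has further starts, so that the Irgm1 and Irgm2 stretches lie inside the GENCODE genes. The Gbp7 and Gbp3 stretches lie at chr3:142530273-142530302 and chr3:142559992-142560021 on the plus strand. The neighbouring genes Ifit3 and Ifit3b shared the same 30 bases, at chr19:34583397-34583426 and chr19:34607793-34607822 on the plus strand. A further core began 156 bases before the start in Ifit3 and 188 bases before it in Ifit3b, outside the stretches shown. The Ifit1 stretch, at chr19:34640785-34640814 on the plus strand, held 2 cores, and the window of Ifit2 held a GAS motif and no ISRE core. The Isg15 stretch, at chr4:156200871-156200900 on the minus strand, held 3 cores. Irf9, Irf7, Irf3, Oasl2, Ifi44, Trim25, Xaf1, Ifngr1 and Ifngr2 had neither set of letters in their windows. Genes with the ISRE core had a median log2 fold change of 0.17 after DT (19 genes) and those without it a median of 0.04 (15 genes), which is given as a description.

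Reads assigned to genes, as recovered from the deposited CPM, summed to 21704891 to 32933975 per library. The labelled groups were first checked on the targeted gene: Siglech had 21, 71 and 42 reads in the PBS libraries and 0 reads in each of the 3 DT libraries. The 15 astrocyte markers summed to 37822 to 42585 TPM (a level per transcript length, comparable between genes), and 14 microglial markers summed to 278, 348 and 333 TPM after PBS and 163, 149 and 147 TPM after DT, with 8 of the 14 lower. Markers of border-associated macrophages summed to 35.3, 31.4 and 46.6 TPM after PBS and to 90.8, 104 and 80.3 TPM after DT, with 3 of 9 tested higher (Lyve1, Mrc1 and F13a1). In such pools, fewer cells of a type and less RNA per cell cannot be told apart.

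In the PBS group the astrocyte pools already held RNA of nearly the whole interferon list, as a broad range of low and middle levels. After PBS, the level of the 44 genes ranged from 0.226 TPM for Mx1 to 114 TPM for Ifi27, with a median of 12.2 TPM. The type I receptor subunit Ifnar2 was next at 109 ± 2.63 TPM (SD, n = 3), above 89.3% of the genes tested. The median of 12.2 TPM stood below that of all genes tested, 22.1 TPM. All 44 genes had reads in at least 1 library. The PBS pools also held markers of endothelial cells, pericytes and microglia, with mean sums of 1541, 1146 and 320 TPM, beside 38540 TPM for the astrocyte markers. Which cells of the pools held the RNA of the list was not tested. The plot of levels by role shows the receptors and most transcription factors in the upper part of this range.

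**Figure D1:**
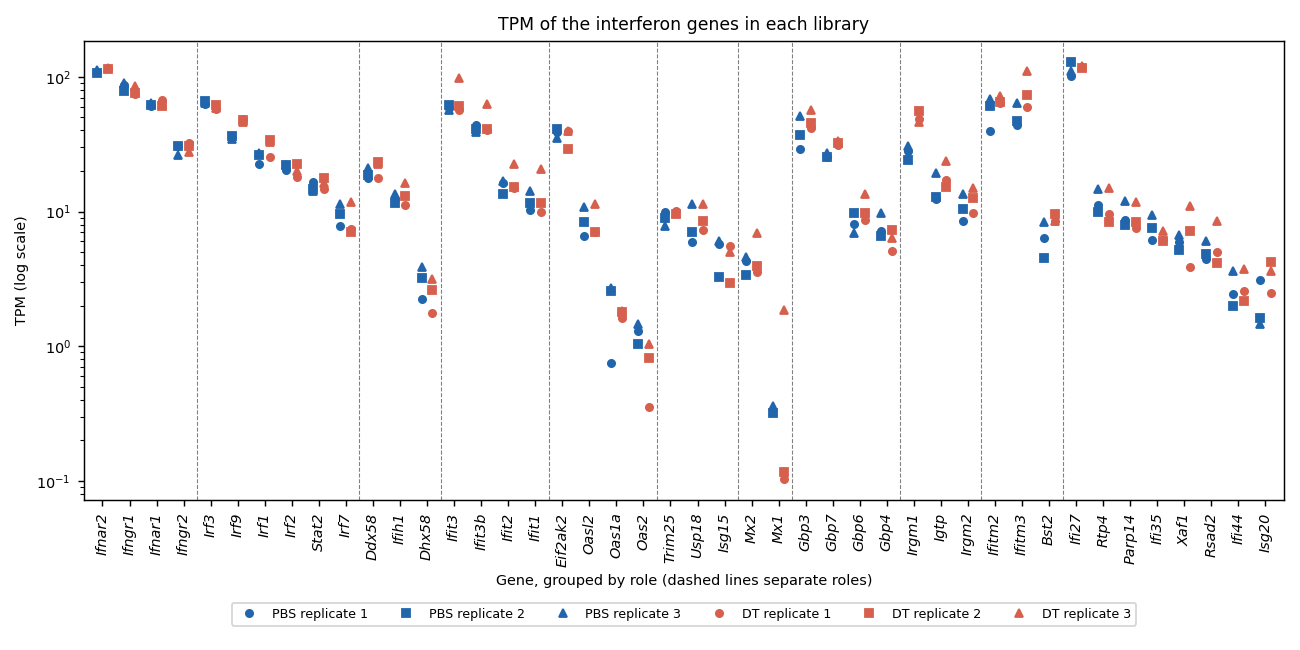
Level in TPM (log axis) of each of the 44 genes in the 3 PBS (blue) and 3 DT (red) libraries, with the replicate number given by the symbol and the genes grouped by role. Ifi27 (114 TPM after PBS) and Ifnar2 (109 TPM) stand highest and Mx1 (0.226 TPM) lowest, and the Mx1 library listed at 0, PBS replicate 1, cannot be drawn on a log axis.

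After DT, 1 of the 43 genes tested was higher at an adjusted p-value under 0.05 and 0 were lower (limma on log2(CPM + 0.1), two-sided, Benjamini-Hochberg over 15137 genes, where CPM is the read count scaled to the size of the library), against a background of 0.555% of all genes tested called higher and 0.159% lower. That gene was Irgm1. The edgeR test on recovered reads called 1 of the 43 genes higher and 0 lower, where it called 0.733% of all genes in either direction. DESeq2 called 3 higher (Irgm1, Irf9 and Gbp7) and 0 lower, where it called 2.15% of all genes in either direction. Of the 43 genes, 29 had a log2 fold change above 0 and 14 below, where 48.7% of all genes tested were above 0, and the median was 0.12, where that of all genes was -0.01. The median level of the 43 genes varied between the libraries of a group with an SD of 0.14 on the log2 scale. That SD is a spread of single libraries and not of the fold change. The median log2 fold change was -0.04 without DT replicate 3. At an unadjusted p under 0.05 stood 4 genes (Irgm1, Irf9, Gbp7 and Ifitm3), all of them higher after DT, where 10.4% of all genes did. The groups did not overlap in 4 genes that were above (Irgm1, Irf9, Gbp7 and Bst2) and 2 that were below (Irf3 and Oas2), where 8.75% of all genes lay wholly above and 7.57% wholly below. For 36 of the 43 genes the 95% interval of the change lay within 2-fold in either direction, and for 19 within 1.5-fold, where 86.0% and 66.6% of all genes did.

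**Figure D2:**
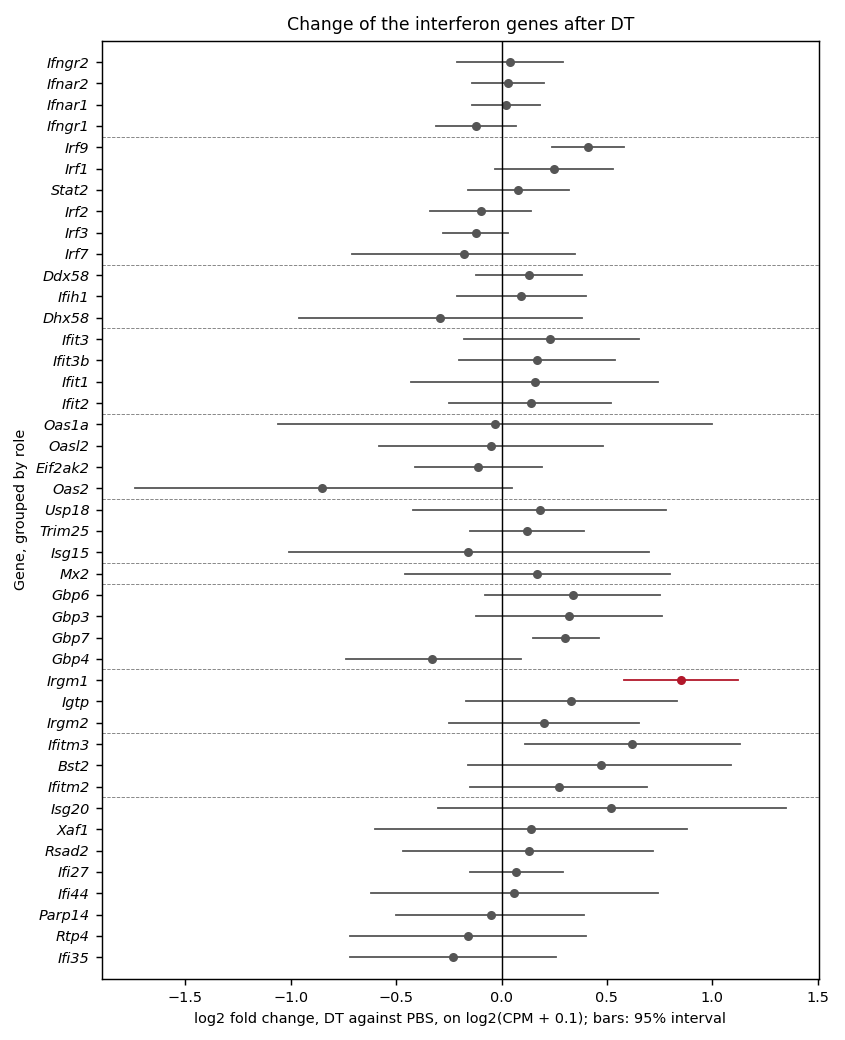
Log2 fold change of the 43 genes tested, DT against PBS, on the scale of log2(CPM + 0.1), grouped by role and ordered within a role by the size of the change. Points are limma estimates and bars their 95% intervals, with Irgm1 (0.85, in red) the gene past the threshold and the interval of 39 of the 43 genes including 0.

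The immunity-related GTPases (IRG) are interferon-inducible proteins that sit on the membranes of vacuoles and organelles. Irgm1, a member of this family that regulates the effector GTPases and autophagy, is a gene on chr11:48861968-48871683, minus strand. Its CPM were 22.0, 18.0 and 23.4 after PBS and 37.5, 41.5 and 34.8 after DT. The lowest DT library stood well above the highest PBS library, and the libraries of each group lay close together. The level went from 27.7 ± 3.37 to 50.3 ± 5.06 TPM (SD, n = 3 each). Irgm1 rose by 0.85 on the log2 scale (standard error, SE, 0.12, limma adjusted p = 0.0194), a 1.80-fold change with a 95% interval of 1.49 to 2.17. The call was kept with edgeR's quasi-likelihood test (adjusted p = 0.0212, where 0.733% of all genes were called) and DESeq2 (adjusted p = 1.03e-07, where 2.15% were). It was lost with limma without PBS replicate 1 (adjusted p = 0.0515), DT replicate 1 (adjusted p = 0.0800) or DT replicate 2 (adjusted p = 0.102), without the filter (adjusted p = 0.203) and without the variance trend (adjusted p = 0.0992), and the log2 fold change lay between 0.74 and 0.92 when single libraries were left out.

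Irgm2 and Igtp, the other members of this family on the list, are neighbours on chromosome 11 whose annotated genes overlap by 7974 bases on 1 strand. Of their read-length windows, 0.410% in Irgm2 and 0.693% in Igtp were shared. The CPM of Irgm2 were 10.4, 12.3 and 16.2 after PBS and 11.9, 14.9 and 17.8 after DT. These ranges overlapped over most of their width. Its log2 fold change was 0.20 (SE 0.20, limma adjusted p = 0.774) and that of Igtp 0.33 (SE 0.22, limma adjusted p = 0.653), so that neither passed the test. The ratio of Irgm1 to Irgm2 in TPM was 2.65 ± 0.612 after PBS and 4.16 ± 0.974 after DT (SD, n = 3 each), with PBS replicate 1 at 3.36 and DT replicate 3 at 3.09, so the ratios of the groups overlapped.

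Like Irgm1, all tested markers of border-associated macrophages, choroid plexus epithelium and ependymal cells had log2 fold changes above 0 after DT. The ependymal markers were above 0 in 10 of 10 genes (median 0.49, 6 at an unadjusted p under 0.05 and 0 past the threshold in limma). The choroid plexus markers were above 0 in log2 fold change in 11 of 11 genes (median 1.70, 9 at an unadjusted p under 0.05 and 0 past the threshold in limma), with sums of 477, 2261 and 153 TPM after PBS and 3805, 2658 and 1416 TPM after DT, where the groups overlapped. Within each group the 3 libraries fell in the same order for the CPM of Irgm1 and for the summed TPM of the border-associated macrophage markers. Irgm1 and Bst2 were the 2 of 43 genes with that order, as were 1.74% of all genes tested. The choroid plexus and ependymal sums did not fall in the order of Irgm1 in either group. The part of these cell types in the change of Irgm1 was not tested. Markers of T cells, monocytes and neutrophils were near 0 (sums of 3.29 to 7.62 TPM), with 6 of 10 (Cd3e, Cd3g, Nkg7, Plac8, S100a8 and S100a9) without a read in any library.

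**Figure D3:**
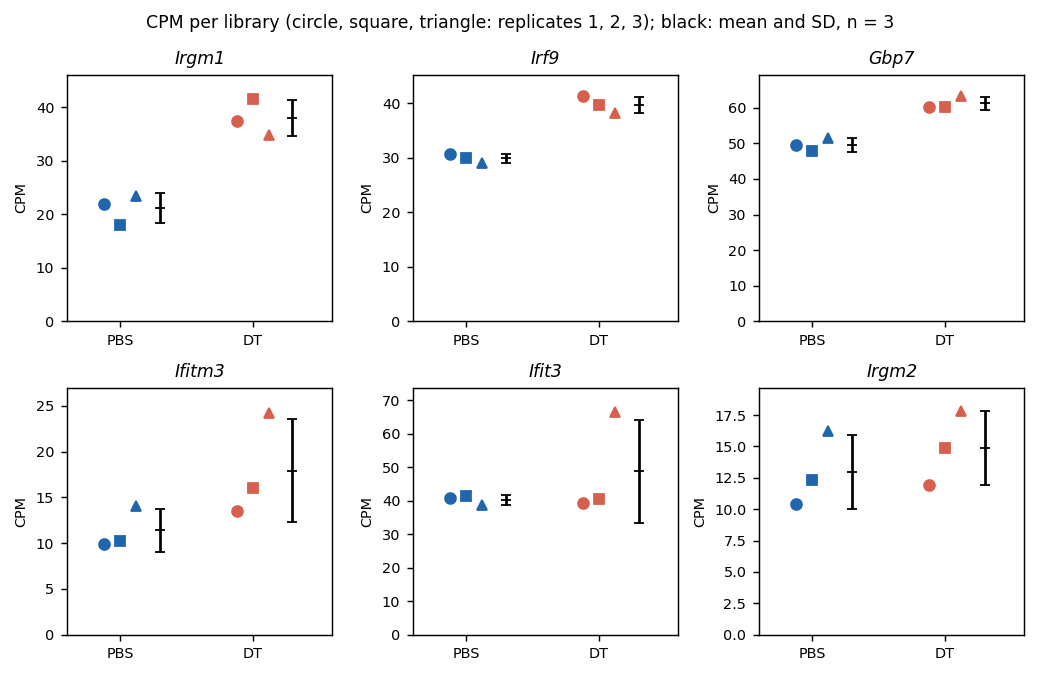
CPM of 6 genes in each library (linear axes from 0, PBS in blue and DT in red, replicates 1, 2 and 3 as circle, square and triangle), with the mean and SD of each group in black. The groups are apart for Irgm1, Irf9 and Gbp7 and overlap for Ifitm3, Ifit3 and Irgm2, where the highest DT value is that of replicate 3.

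The guanylate-binding proteins (GBP) are large GTPases that gather on pathogen vacuoles. Gbp7 had CPM of 49.4, 47.8 and 51.6 after PBS and 60.1, 60.3 and 63.4 after DT. The groups did not overlap, and the gap between them was wider than the range of either. Its log2 fold change was 0.30 (SE 0.07), which missed the threshold in limma (adjusted p = 0.119) and passed it in DESeq2 alone among 17 alternatives (adjusted p = 0.0228). Of the windows of read length in its transcripts, 8.76% also occurred in the pseudogene Gm43802.

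Gbp3 was the GBP gene on the list with the highest level, at 39.0 ± 11.4 TPM after PBS and 48.0 ± 7.83 after DT (SD, n = 3 each). Its CPM were 26.2, 32.3 and 45.8 after PBS and 37.8, 39.8 and 49.9 after DT. PBS replicate 3 lay above DT replicates 1 and 2, and the log2 fold change of 0.32 did not pass the test (SE 0.19, limma adjusted p = 0.621). Gbp6 had a log2 fold change of 0.34 and Gbp4 of -0.33, and neither passed. The Gbp6 value is uncertain, since 59.0% of its read-length windows were shared with other genes, mostly Gm43302.

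The receptors stood at nearly the same level in both groups. Ifnar1 and Ifnar2 together bind type I interferons, Ifngr1 binds interferon gamma and Ifngr2 joins it for signalling. Ifnar2 had CPM of 51.8, 47.9 and 53.7 after PBS and 54.1, 50.4 and 51.9 after DT, ranges that lay almost on top of each other. Its log2 fold change was 0.03 (95% interval -0.14 to 0.20) and that of Ifnar1 was 0.02 (95% interval -0.14 to 0.18). Ifngr1, with CPM of 63.2, 55.7 and 64.1 after PBS and 54.6, 53.5 and 60.1 after DT, had a log2 fold change of -0.12 (95% interval -0.31 to 0.07), and Ifngr2 one of 0.04 (95% interval -0.21 to 0.29). None of the 4 passed the test (adjusted p from 0.663 to 0.965, limma). In level, Ifnar2 at 109 TPM and Ifngr1 at 85.0 ± 5.41 TPM stood above Ifnar1 at 62.0 ± 1.66 TPM and Ifngr2 at 29.2 ± 2.38 TPM after PBS (SD, n = 3 each). Ifnar2, Ifnar1 and Ifngr2 are neighbours on chromosome 16.

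Among the 6 transcription factors, the groups did not overlap for Irf9, higher after DT, and Irf3, lower after DT. Of all genes tested, 8.75% lay wholly above after DT and 7.57% wholly below. Irf9, the DNA-binding subunit of the complex with STAT2, is a gene on chr14:55603571-55610030, plus strand. Its CPM were 30.7, 30.0 and 29.0 after PBS and 41.3, 39.6 and 38.3 after DT. Both groups were tight and well apart. The log2 fold change was 0.41 (SE 0.07, 95% interval 0.24 to 0.58), just short of the threshold (limma adjusted p = 0.0578). It passed with TPM in place of CPM (limma adjusted p = 0.0459) and with DESeq2 (adjusted p = 0.00223), and in none of the other 15 alternatives. Irf9 overlaps the end of Rnf31 by 123 bases on 1 strand, and Rnf31 had a log2 fold change of 0.07.

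Irf3, which sensors of foreign nucleic acid activate to induce interferon, was the transcription factor with the highest level at 64.3 ± 1.74 TPM after PBS (SD, n = 3). Its CPM were 44.9, 46.0 and 45.4 after PBS and 41.9, 43.1 and 40.2 after DT. All DT libraries lay below all PBS libraries, by a small margin (log2 fold change -0.12, SE 0.07, limma adjusted p = 0.574). Stat2, the partner of IRF9, had a log2 fold change of 0.08, Irf1, which turns on many of these genes after interferon gamma, one of 0.25, Irf2, which can oppose IRF1, one of -0.10, and Irf7, which amplifies interferon production, one of -0.18. None of these 4 passed the test.

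The sensors of cytoplasmic RNA are Ddx58 (RIG-I), Ifih1 (MDA5) and Dhx58 (LGP2). Ddx58 had CPM of 30.4, 31.3 and 35.6 after PBS and 30.7, 38.3 and 37.8 after DT, and the groups overlapped (log2 fold change 0.13, SE 0.11, limma adjusted p = 0.734). Ifih1 and Dhx58 had log2 fold changes of 0.09 and -0.29. The list thus held 3 sensors and none passed the test.

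The IFIT proteins bind viral RNA and stop its translation, and their 4 genes form a cluster on chromosome 19. Ifit3 had CPM of 40.7, 41.4 and 38.7 after PBS and 39.2, 40.6 and 66.6 after DT. DT replicates 1 and 2 lay within the PBS range, and DT replicate 3 alone was high. The same library was the highest for Ifit1 (18.4 CPM against 9.12 and 10.1), Ifit2 (29.9 against 20.4 and 20.0) and Ifit3b (42.4 against 27.9 and 27.5), and the TPM of the 4 genes summed to 122, 129 and 205 in the DT libraries and to 129, 128 and 127 in the PBS libraries. The log2 fold changes were 0.14 to 0.23 with all libraries, none past the threshold, and from -0.15 for Ifit1 to -0.01 for Ifit3 without DT replicate 3. Ifit3 and Ifit3b shared 18.4% and 15.8% of their read-length windows, so the split of reads between them is uncertain.

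Oas1a, Oas2 and Oasl2 belong to the family of oligoadenylate synthetases, which trigger RNase L, and Eif2ak2 encodes PKR, the kinase that halts translation on double-stranded RNA. Eif2ak2 was the highest of these at 38.3 ± 2.70 TPM after PBS (SD, n = 3), with CPM of 58.6, 59.1 and 52.2 after PBS and 59.1, 42.1 and 57.7 after DT. DT replicate 2 was the low one, and the log2 fold change was -0.11 (SE 0.13, limma adjusted p = 0.815). Oas2 had CPM of 1.80, 1.36 and 1.98 after PBS and 0.480, 1.07 and 1.35 after DT. Its groups were just apart, on 11 to 45 reads a library, and the log2 fold change of -0.85 did not pass the test (SE 0.39, limma adjusted p = 0.508). Oasl2 had a log2 fold change of -0.05. Oas1a had one of -0.03 and shared 32.3% of its read-length windows with Oas1g.

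Isg15 is a ubiquitin-like modifier, Trim25 a ligase that acts on RIG-I and attaches ISG15, and Usp18 a protease that removes ISG15 and restrains the type I receptor. Trim25 had the highest level and the smallest p of these, with CPM of 19.3, 16.9 and 14.9 after PBS and 19.4, 17.6 and 18.1 after DT. The ranges overlapped (log2 fold change 0.12, SE 0.12, limma adjusted p = 0.779). Usp18 had a log2 fold change of 0.18. Isg15 itself was low, with 1.52, 0.844 and 1.61 CPM after PBS and 1.48, 0.747 and 1.31 CPM after DT, and its log2 fold change was -0.16 (95% interval -1.01 to 0.70).

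The Mx proteins are dynamin-like GTPases against viruses, and C57BL/6 mice carry a defective Mx1. Mx2 had CPM of 3.64, 2.74 and 3.81 after PBS and 3.01, 3.18 and 5.67 after DT, high in DT replicate 3 alone (log2 fold change 0.17, SE 0.28, limma adjusted p = 0.876, and -0.12 without that library). Mx1 was the gene left out by the filter. It had 0, 0.301 and 0.367 CPM after PBS and 0.131, 0.130 and 1.75 CPM after DT, the last being 40 reads in DT replicate 3.

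The membrane restriction factors block the entry of viruses (Ifitm2 and Ifitm3) or tether them to the cell (Bst2). Ifitm3 had CPM of 9.90, 10.2 and 14.1 after PBS and 13.5, 16.0 and 24.2 after DT. PBS replicate 3 lay above DT replicate 1, and replicate 3 was the highest in both groups. The log2 fold change was 0.62 (SE 0.22, unadjusted p = 0.0236, adjusted p = 0.394, limma), and 0.38 without DT replicate 3. Ifitm2 had the highest level of these after PBS, at 56.3 TPM, while Ifitm3 was higher after DT, at 81.6 against 67.0 TPM. Ifitm2 had CPM of 8.70, 12.9 and 14.6 after PBS and 14.0, 13.5 and 15.2 after DT. PBS replicate 1 was low and the other libraries were alike (log2 fold change 0.27, SE 0.18, limma adjusted p = 0.663), and 23.4% of its read-length windows were shared with Gm45717. Bst2 went from 1.70, 1.18 and 2.21 CPM to 2.27, 2.44 and 2.22 CPM, so that the groups touched without overlapping (log2 fold change 0.47, SE 0.28, limma adjusted p = 0.611).

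Of the other 8 effectors none passed the test. Ifi27 had CPM of 33.7, 42.5 and 38.6 after PBS and 40.0, 39.2 and 40.9 after DT, a log2 fold change of 0.07 (SE 0.09, limma adjusted p = 0.850). Isg20, an exonuclease of RNA, had CPM of 1.2, 0.663 and 0.551 after PBS and 1.0, 1.3 and 1.13 after DT. PBS replicate 1 stood within the DT range (log2 fold change 0.52, SE 0.36, limma adjusted p = 0.666). Xaf1, which promotes apoptosis, Rsad2 (viperin), which blocks viral replication, and Ifi44 had log2 fold changes of 0.14, 0.13 and 0.06, and Parp14, an ADP-ribosyltransferase, Rtp4 and Ifi35 of -0.05, -0.16 and -0.23. Rsad2 and Xaf1 fell below 0, to -0.17 and -0.20, when DT replicate 3 was left out.

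A second pattern ran across the libraries rather than the groups. PBS replicate 3 held the highest CPM of its group for 32 of the 43 genes (74.4%), where it did so for 33.1% of all genes tested. DT replicate 3 did so for 27 of 43 (62.8%, against 34.6% of all genes), and 23 of 43 genes were highest in replicate 3 of both groups (53.5%, against 14.8%). The median excess of the genes over the other libraries of the group was 0.26 on the log2 scale in PBS replicate 3 and 0.28 in DT replicate 3. The genes high in both were Ifit1 and Ifit2, Oas1a, Oas2 and Oasl2, Irf7, Ifih1 and Dhx58, Ifitm2 and Ifitm3, Gbp3 and Gbp7, Igtp and Irgm2, Usp18, Mx2, Rsad2, Xaf1, Parp14, Rtp4, Ifi35, Ifi44 and Ifngr1. Irgm1 and Irf9 were not among them, and DT replicate 3 was the lowest of its group for both.

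**Figure D4:**
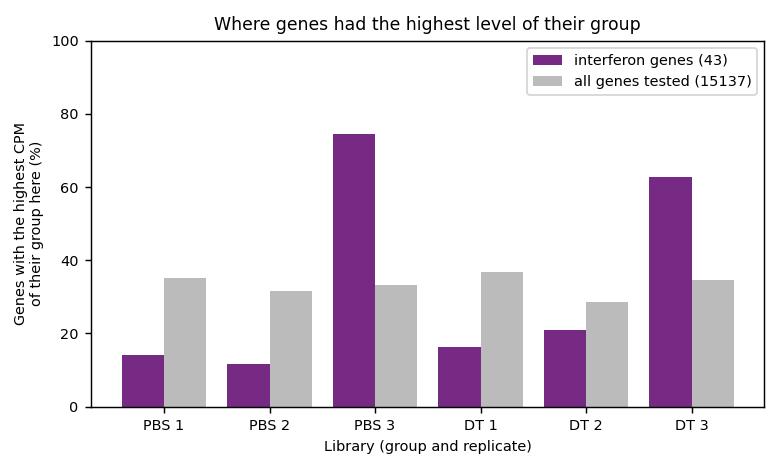
Share of genes (in %) whose highest CPM within the group fell in each library, for the 43 interferon genes (purple) and all 15137 genes tested (grey). Replicate 3 stands out in both groups, with 74.4% of the interferon genes in PBS replicate 3 and 62.8% in DT replicate 3, against 33.1% and 34.6% of all genes.

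The heat map of the 43 genes shows this column by column. Endothelial markers were also highest in replicate 3, with sums of 1293, 1401 and 1928 TPM after PBS and 1141, 1169 and 1382 TPM after DT, and 0 of 14 passed the test (limma, with 6 at an unadjusted p under 0.05, all lower after DT). Within each group the libraries fell in the order of the endothelial sums for 7 of the 43 genes (16.3%, against 4.78% of all genes): Ifit1, Ifitm3, Oas1a, Usp18, Dhx58, Gbp3 and Irgm2. Only genes highest in replicate 3 of both groups could match that order. Of the genes highest there, 7 of 23 on the list and 724 of 2239 over the whole table did, which are like shares. Pericyte and neuron markers were likewise highest in replicate 3 of both groups. Pericyte markers summed to 1230, 881 and 1325 TPM after PBS and 1049, 1149 and 1428 TPM after DT. Neuron markers summed to 303, 358 and 362 TPM after PBS and 266, 430 and 449 TPM after DT. Ependymal markers, at 744, 927 and 898 TPM after PBS and 990, 1030 and 1662 TPM after DT, were highest in replicate 3 after DT alone. These cell types were not measured apart. The part of these cell types in the pattern was not tested. Without replicate 3 of both groups, a comparison added after the values had been seen, 1 of the 43 genes passed the test, again Irgm1 (log2 fold change 0.98, adjusted p = 0.0464, limma), the median of the 43 genes was 0.03, and 58 genes were called over the whole table.

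**Figure D5:**
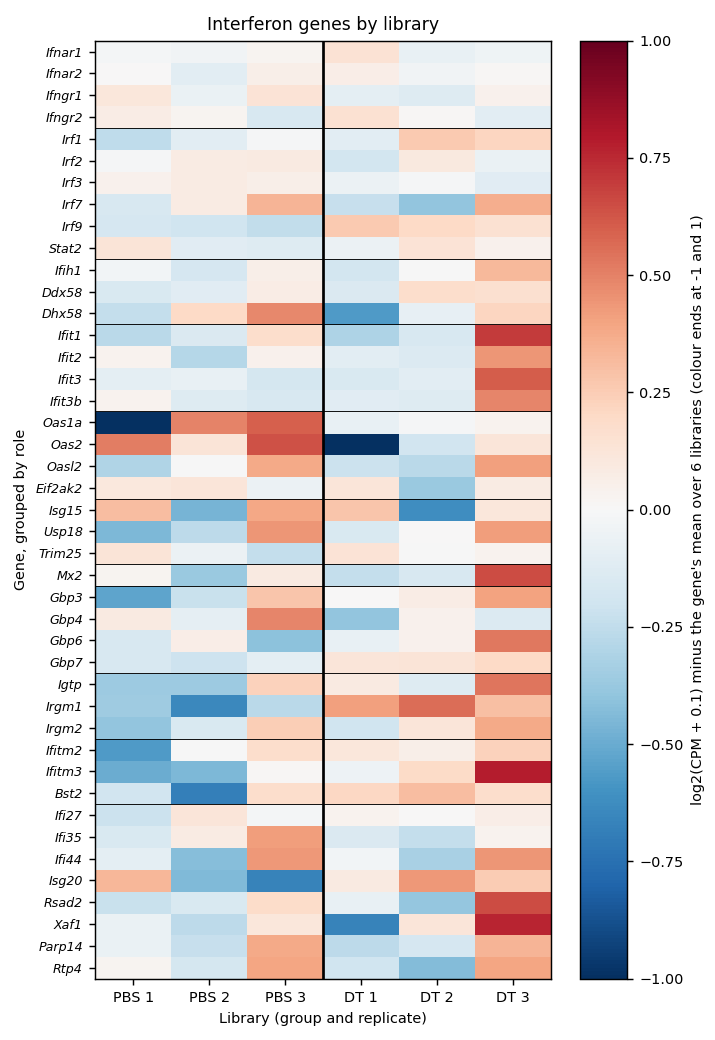
Each of the 43 genes tested (rows, grouped by role) in each library (columns), as log2(CPM + 0.1) minus the mean of the gene over the 6 libraries, with red higher and blue lower and the colours ending at -1 and 1. Replicate 3 is red for most rows in both groups, and Irgm1, Irf9 and Gbp7 change from blue to red between PBS and DT.

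The rest of the interferon pathway was examined with a list of 102 further genes. Of 21 interferon genes, 15 had no read in any library, Ifnb1 and Ifng among them. The others (Ifnk, Ifnz, Ifnab, Ifna7, Ifna11 and Ifna13) had at most 6 reads in a library, and 0 of the 21 passed the filter. The interferons were thus not detectable beyond a few reads at this depth, and other cells of the hippocampus were not measured.

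Of the 10 genes for JAK-STAT signalling and its brakes, 10 were tested and 0 passed in limma, nor did any have an unadjusted p under 0.05. Ptpn1, a phosphatase that acts on JAK kinases, had the smallest p of the list, with CPM of 40.3, 38.0 and 38.5 after PBS and 41.6, 41.5 and 42.7 after DT. It was the 1 gene of this list whose groups did not overlap, by a small margin (log2 fold change 0.11, SE 0.07, limma adjusted p = 0.645).

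Of the 16 genes for nucleic acid sensing upstream of interferon, 15 were tested and 0 passed in limma, with 1 at an unadjusted p under 0.05. This gene, Myd88, the adaptor of most Toll-like receptors, had CPM of 9.44, 9.16 and 8.50 after PBS and 12.9, 12.8 and 12.1 after DT. The groups were clearly apart, and the log2 fold change of 0.48 missed the threshold (SE 0.11, limma adjusted p = 0.163).

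Of 55 other interferon-stimulated genes, 47 were tested and 0 passed in limma. Their median log2 fold change was 0.05, and 8 of the 47 had an unadjusted p under 0.05, a larger share than the 10.4% of all genes. The groups did not overlap in 9 genes that were above after DT and 1 that was below, where 8.75% and 7.57% of all genes did so. Lgals3bp, a secreted glycoprotein that binds galectins, had CPM of 64.5, 51.6 and 58.7 after PBS and 86.5, 79.4 and 81.0 after DT. The groups did not overlap, the log2 fold change was 0.50 (SE 0.09, limma adjusted p = 0.0550), and the gene passed in 6 of 17 alternatives. Shisa5, a protein of the endoplasmic reticulum, had a log2 fold change of 0.42 (limma adjusted p = 0.0578), and Nlrc5, the transactivator of MHC class I genes, one of 0.96 (limma adjusted p = 0.172). Cxcl10, a chemokine that draws T cells, had 17, 26 and 0 reads after PBS and 35, 40 and 108 reads after DT. Its groups did not overlap, and its log2 fold change of 2.38 was the largest of this list (limma adjusted p = 0.394). That size depends on the 0.1 CPM added, since PBS replicate 3 had 0 reads. Gbp2, a neighbour of Gbp3 and Gbp7 on chromosome 3, had a log2 fold change of 0.58 (limma adjusted p = 0.328). Over the 102 genes, 72 were tested, 0 passed in limma and 9 had an unadjusted p under 0.05, a share near the 10.4% of all genes. Of these 9 genes, 8 were among the 47 other interferon-stimulated genes tested. The edgeR test called 1 of them (Lgals3bp), where it called 0.733% of all genes, and DESeq2 called 3 (Lgals3bp, Nlrc5 and Shisa5), where it called 2.15%, all higher after DT.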

How the data were processed

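RNA of astrocytes isolated by MACS from 3 PBS and 3 DT pools was analysed. According to the methods, the authors trimmed reads with Trim Galore 0.5.0, mapped them to mm10 with HISAT2 2.1.0 using strand, removed ribosomal reads with BEDTools 2.25.0 and quantified genes with StringTie 1.3.5. The authors deposited TPM and CPM per gene and library. The deposited CPM are a signal relative to TMM-scaled library sizes (factors 0.974 to 1.02), where the design had assumed plain CPM, and 100% of values were whole multiples of 1 read within 0.0015 CPM. The authors also deposited columns of p-values and q-values and of log2 changes, which hold their own comparison and were not used.

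Genes whose CPM averaged 0.5 or more were tested on log2(CPM + 0.1) with limma 3.58.1 in R 4.3.3 (variance trend, two-sided, Benjamini-Hochberg over all genes tested, threshold 0.05). Fold changes of low genes on this scale depend on the 0.1 CPM added, and can be smaller or larger than those of count tests. The log2 fold change of Oas1a was -0.03 in limma and -0.23 in edgeR, and that of Oas2 -0.85 and -0.80. Depth limits the precision of low genes, and counting error was not modelled in the main test. Alternatives were pseudocounts of 0.5 and 1, no filter or a minimum of 2 CPM, quantile normalization, TPM, a replicate block, no variance trend, leaving out each library, and count tests on recovered reads (edgeR 4.0.16, DESeq2 1.42.0). Leaving out replicate 3 of both groups was chosen after seeing the data. The fits were tested on simulated data.

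The genes and lists were chosen with earlier results of these data known. Given in full are genes past the threshold and, in each role group, the gene with the highest TPM after PBS and the one with the smallest p, and the smallest p of each pathway list. Other genes with values per library (Irgm2, Isg15, Bst2, Cxcl10, Mx1 and the IFIT genes), and Shisa5, Nlrc5 and Gbp2, were chosen after their values were seen. Genes were placed with GENCODE M21 (mm10) and promoter stretches with RefSeq. Read-length windows are all stretches of 151 bases in a gene's annotated transcripts.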

Additional observations from a re-analysis of the deposited data

How the results depend on the processing

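Of 727 values of single genes (43 genes under up to 17 alternatives), 685 kept their direction and side of the threshold, 34 changed direction, 3 passed and 5 lost the threshold, and 40 genes were called in no alternative. Over the 43 genes, all genes and the other pathway genes, the main counts were 1, 108 and 0. The count of the 43 genes was 0 with no filter and with no variance trend, 2 with TPM (Irgm1 and Irf9), 3 with DESeq2 (Irgm1, Irf9 and Gbp7) and 0 to 1 with each library left out. All genes called were 6 with no filter, 46 with no variance trend, 325 with DESeq2, 50 to 83 with each library left out and 58 without replicate 3 of both groups. The other pathway genes called were 1 (Lgals3bp) with TPM, quantile normalization, the replicate block and edgeR, 3 (Lgals3bp, Nlrc5 and Shisa5) with DESeq2, and 0 to 1 with each library left out. The median of the 43 genes was -0.04 to 0.20 with each library left out, the lowest without DT replicate 3. The causes were not tested.

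The replicate numbers are not stated to mark shared experiments. Deviations from the group means correlated at 0.115, 0.0105 and 0.118 for numbers 1, 2 and 3 over all genes tested and at 0.11, 0.191 and 0.342 over the 43 genes, and over all genes 4 of 6 libraries correlated best with their own number. With the replicate number as a block, 1 of the 43 genes, 109 of all genes and 1 other pathway gene were called, the median of the 43 genes was 0.12, and Irgm1 had an adjusted p of 0.0495 (limma).

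None of the genes that changed direction was called. With quantile normalization, Ifi44 had a log2 fold change of -3.80e-04. With each library left out, the log2 fold changes ranged from -0.15 to 0.35 for Ifit1, -0.05 to 0.24 for Ifit2, -0.01 to 0.37 for Ifit3, -0.04 to 0.28 for Ifit3b, -0.02 to 0.15 for Ifi27, -0.14 to 0.29 for Ifi44, -0.04 to 0.21 for Ifih1, -0.43 to 0.12 for Isg15, -0.56 to 0.26 for Oas1a, -0.27 to 0.13 for Oasl2, -0.12 to 0.33 for Mx2, -0.17 to 0.35 for Rsad2, -0.20 to 0.51 for Xaf1, -0.24 to 0.12 for Parp14, -0.40 to 0.02 for Rtp4, -0.20 to 0.05 for Eif2ak2, -0.05 to 0.06 for Ifnar1, -0.02 to 0.07 for Ifnar2 and -0.03 to 0.10 for Ifngr2. Without replicate 3 of both groups they were -0.03 for Ifit1, -0.04 for Ifit3, -0.07 for Ifit3b, -0.03 for Mx2, -0.04 for Rsad2, -0.11 for Xaf1 and 0.23 for Oas1a.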
